A study of Mus musculus with 10 samples.

Results

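Immediate early response genes are the first genes that a cell transcribes when it is stimulated, before any new protein is made. The 10 genes described here are Fos, Jun, Junb, Jund, Egr1, Klf4, Dusp1, Zfp36, Btg2 and Ier2. They were chosen by symbol, their transcripts were found in the deposited table, and the FPKM (fragments scaled to transcript length and library size) of the transcripts listed for each gene were summed. All 10 genes were listed, each with 1 transcript, out of 11777 gene symbols in the table.

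Myocardial RNA of C57BL/6 mice was sequenced. There were 5 hearts labelled NPRA-/- (mice 217, 227, 231, 240 and 241), from animals in which natriuretic peptide receptor A had been deleted in the myocardium, and 5 labelled NPRA+/+ (mice 228, 230, 242, 243 and 255), from littermates with the receptor intact. NPRA is the membrane guanylyl cyclase, encoded by Npr1, through which atrial and B-type natriuretic peptides raise cGMP. The sources used here give neither the Cre driver nor the age or sex of the mice, and none of the labels names a treatment. Each library is a mouse number, and p-values measure the spread between these libraries. Groups are named below by these labels.

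Extracellular signals reach these genes through the MAP kinase cascades, which act on serum response factor and its ternary complex partners, and through cAMP- or calcium-dependent kinases, which act on the factor CREB. The RNAs are short-lived, so their levels follow recent events in the tissue. In the heart they are known to be induced by pressure overload, adrenergic stimulation, ischaemia and reperfusion. FOS proteins pair with JUN proteins to form the transcription factor AP-1, and several other members act as brakes on the same response.

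The libraries carried high levels of cardiomyocyte genes: Myh6, the alpha myosin heavy chain, was at 7854 ± 371 FPKM in hearts labelled NPRA-/- and 7781 ± 523 FPKM in hearts labelled NPRA+/+ (SD, n = 5 each). Npr1 itself was at 4.64 ± 0.492 FPKM in hearts labelled NPRA-/- and 4.68 ± 0.301 FPKM in hearts labelled NPRA+/+, so its RNA does not check the labels, and directions below are those of the labelled groups. The atrial myosin light chain Myl7 ran from 0 to 140 FPKM in the hearts labelled NPRA-/- and from 0 to 75.4 FPKM in those labelled NPRA+/+, so the libraries differed in atrial transcripts. The values summed to 430059 to 453122 FPKM per library. Sequencing depth is unknown, so the spread between mice is the measure of precision.

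None of the 10 genes differed between the genotypes beyond the spread between libraries. The count called by limma at an adjusted p of 0.05 was 0 of 10, against 0.00929% of the 10764 genes tested, and at an unadjusted p under 0.05 it was also 0, against 5.52% of all genes. The means of 6 members were lower in hearts labelled NPRA-/- (Dusp1, Klf4, Zfp36, Jun, Ier2 and Btg2) and those of 4 were higher (Egr1, Fos, Jund and Junb), where 60.6% of all tested genes were lower. The median log2 difference of the members was -0.092, and that of all tested genes was -0.029. Without library 241 the members' median was -0.0075 and 5 were lower; without library 240 it was -0.14 and 9 were lower, as 9 were without library 255. In each of the 10 genes the ranges of the genotypes overlapped, and 1.08% of all tested genes had no overlap. Log2 differences are on the scale of log2(FPKM + 1), as NPRA-/- minus NPRA+/+, and their 95% intervals use 8 residual degrees of freedom. In this whole tissue, fewer cells of a type and less RNA per cell cannot be told apart.

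**Figure D1:**
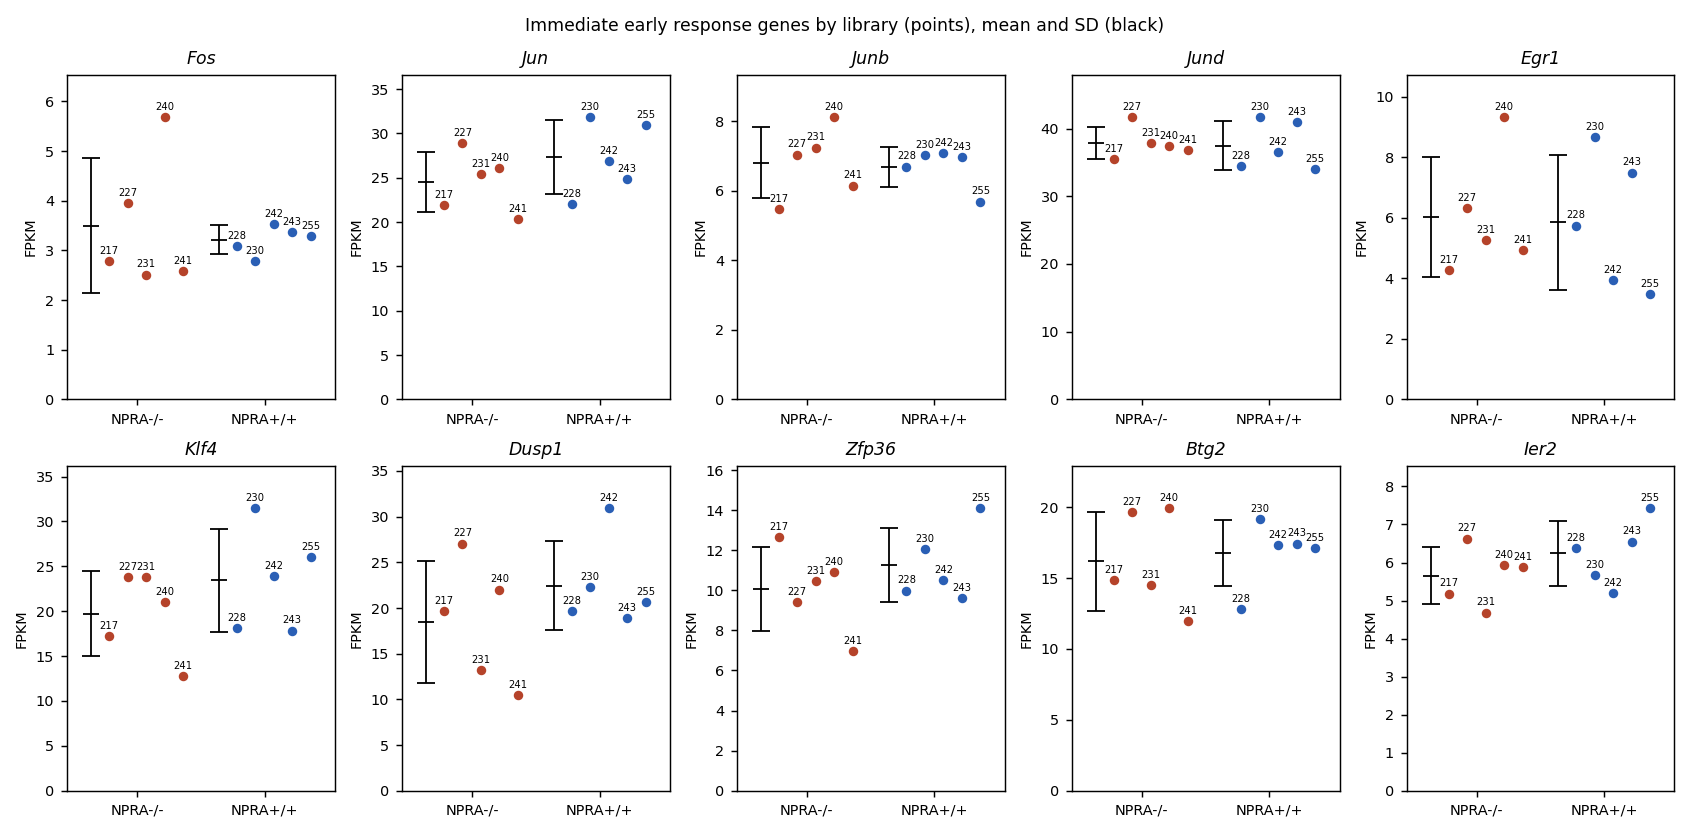
FPKM of each of the 10 genes (y axis, from 0) in the 5 hearts labelled NPRA-/- (red, left) and the 5 labelled NPRA+/+ (blue, right); points are libraries with their mouse number, and black bars are mean and SD. The groups overlap in every panel; Fos and Egr1 have their highest point in library 240, and Klf4, Dusp1, Jun, Btg2 and Zfp36 have their lowest in library 241.

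Among the AP-1 genes, Fos (chromosome 12, 85473890 to 85477273, plus strand, GRCm38/mm10; 4 exons) was the least abundant member. It encodes the inducible FOS subunit, which binds DNA only with a JUN partner. Fos was at 2.78, 3.94, 2.51, 5.69 and 2.58 FPKM in libraries 217, 227, 231, 240 and 241, labelled NPRA-/-, against 3.08, 2.78, 3.53, 3.37 and 3.29 FPKM in libraries 228, 230, 242, 243 and 255, labelled NPRA+/+. Libraries 240 and 227 lay above every NPRA+/+ library and libraries 231 and 241 below every one, so that only library 217 lay within the NPRA+/+ range. The log2 difference was 0.052 (SE 0.17, 95% interval -0.34 to 0.44; limma adjusted p = 0.984). It was -0.10 without library 240.

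Jun (chromosome 4, 95049034 to 95052222, minus strand; a single-exon gene) encodes the inducible JUN subunit and target of the JNK kinases. It was at 21.9, 28.9, 25.4, 26.1 and 20.4 FPKM in libraries 217, 227, 231, 240 and 241, labelled NPRA-/-, against 22.1, 31.9, 26.9, 24.9 and 31.0 FPKM in libraries 228, 230, 242, 243 and 255, labelled NPRA+/+. The highest values were in NPRA+/+ libraries 230 and 255 and the lowest in NPRA-/- library 241, with overlap between them. The log2 difference was -0.15 (SE 0.12, interval -0.42 to 0.12; limma adjusted p = 0.914).

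Junb (chromosome 8, transcript at 84976910 to 84978718, minus strand) encodes a JUN protein that is known to act as a weaker activator than JUN and to oppose it at some targets. It was at 5.49, 7.05, 7.25, 8.13 and 6.16 FPKM in libraries 217, 227, 231, 240 and 241, labelled NPRA-/-, against 6.70, 7.03, 7.08, 6.97 and 5.69 FPKM in libraries 228, 230, 242, 243 and 255, labelled NPRA+/+. The 4 NPRA+/+ libraries other than 255 lay close together, inside the range of the NPRA-/- libraries (log2 difference 0.015, SE 0.10, interval -0.22 to 0.25). Jund (chromosome 8, 70698949 to 70700616, plus strand) encodes the JUN protein that is present in resting cells and is little induced. It was the most abundant of the 10 genes, at 35.5, 41.7, 37.9, 37.4 and 36.8 FPKM in libraries 217, 227, 231, 240 and 241, labelled NPRA-/-, against 34.4, 41.7, 36.5, 40.9 and 34.0 FPKM in libraries 228, 230, 242, 243 and 255, labelled NPRA+/+. Its interval was the narrowest of the 10, from -0.15 to 0.18 about a log2 difference of 0.017 (limma adjusted p = 0.989).

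Jund made up most of the RNA of the Jun family on the FPKM scale. Its share of the sum of Jun, Junb and Jund was 54.8% ± 2.37 in hearts labelled NPRA-/- and 52.4% ± 3.10 in hearts labelled NPRA+/+ (n = 5 each, SD; exact permutation test, two-sided p = 0.238). Jun took 35.3% ± 1.96 in hearts labelled NPRA-/- and 38.1% ± 3.90 in hearts labelled NPRA+/+ (exact permutation p = 0.190, n = 5 each). The share of Jund was highest in NPRA-/- library 241, at 58.1%, and lowest in NPRA+/+ library 255, at 48.1%, where Jun took 43.9%. Fos, Jun, Junb and Jund together summed to 72.7 ± 7.02 FPKM in hearts labelled NPRA-/- and 74.7 ± 6.10 FPKM in hearts labelled NPRA+/+ (n = 5 each, SD; exact permutation p = 0.595). Fos was 3.33% to 7.35% of that sum, with the highest share in NPRA-/- library 240. The smallest p that 5 against 5 libraries allow in this two-sided test is 0.00794.

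The zinc-finger transcription factors were Egr1 and Klf4. Egr1 (chromosome 18, plus strand) encodes a factor induced through serum response factor that binds GC-rich sites. It was at 4.28, 6.32, 5.28, 9.34 and 4.93 FPKM in libraries 217, 227, 231, 240 and 241, labelled NPRA-/-, against 5.75, 8.66, 3.94, 7.50 and 3.47 FPKM in libraries 228, 230, 242, 243 and 255, labelled NPRA+/+. Both genotypes spanned nearly the same range, from 4.28 to 9.34 FPKM in NPRA-/- and from 3.47 to 8.66 FPKM in NPRA+/+. The log2 difference was 0.056 (SE 0.24, interval -0.50 to 0.61, limma adjusted p = 0.989). The interval leaves room for a change of either sign.

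Klf4 (chromosome 4, 55527143 to 55532466, minus strand; 5 exons in the listed transcript) encodes a Krüppel-like factor known in the vessel wall as a flow-responsive gene of endothelium and a repressor of smooth muscle genes. It was at 17.2, 23.8, 23.8, 20.99 and 12.8 FPKM in libraries 217, 227, 231, 240 and 241, labelled NPRA-/-, against 18.1, 31.5, 23.9, 17.8 and 26.0 FPKM in libraries 228, 230, 242, 243 and 255, labelled NPRA+/+. Library 241 was lowest and library 230 highest, and the other 8 libraries of both genotypes were interleaved. The log2 difference was -0.24 (SE 0.19, interval -0.69 to 0.20; limma adjusted p = 0.914).

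Dusp1, Zfp36 and Btg2 encode brakes on the response. Dusp1 (chromosome 17, transcript at 26505590 to 26508519, minus strand) encodes a phosphatase that inactivates MAP kinases. It had the largest difference of the 10 genes, and that did not pass the test. It was at 19.7, 27.1, 13.2, 22.03 and 10.5 FPKM in libraries 217, 227, 231, 240 and 241, labelled NPRA-/-, against 19.6, 22.3, 30.9, 18.9 and 20.6 FPKM in libraries 228, 230, 242, 243 and 255, labelled NPRA+/+. NPRA-/- libraries 231 and 241 lay below every NPRA+/+ library, while library 227 lay above 4 of them. The log2 difference was -0.32 (SE 0.23, interval -0.85 to 0.21; limma adjusted p = 0.914), and it was -0.15 without library 241.

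Zfp36 (chromosome 7, 28376784 to 28380253, minus strand) encodes tristetraprolin, which binds AU-rich elements and promotes decay of the RNAs that carry them. It was at 12.6, 9.43, 10.4, 10.9 and 6.96 FPKM in libraries 217, 227, 231, 240 and 241, labelled NPRA-/-, against 9.99, 12.05, 10.5, 9.62 and 14.1 FPKM in libraries 228, 230, 242, 243 and 255, labelled NPRA+/+ (log2 difference -0.16, SE 0.14, interval -0.49 to 0.18). Library 241 was the lowest and library 255 the highest. Btg2 (chromosome 1, 134075170 to 134079120, minus strand) encodes an antiproliferative protein that binds the CCR4-NOT deadenylase. It was at 14.8, 19.7, 14.5, 19.9 and 11.95 FPKM in libraries 217, 227, 231, 240 and 241, labelled NPRA-/-, against 12.8, 19.2, 17.3, 17.4 and 17.1 FPKM in libraries 228, 230, 242, 243 and 255, labelled NPRA+/+. The NPRA-/- libraries formed the wider range, with libraries 227 and 240 high and 241 low (log2 difference -0.063, SE 0.14, interval -0.40 to 0.27).

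Ier2 (chromosome 8, 84661331 to 84662852, minus strand; a single-exon gene) encodes a small nuclear protein. It was at 5.18, 6.63, 4.68, 5.93 and 5.87 FPKM in libraries 217, 227, 231, 240 and 241, labelled NPRA-/-, against 6.37, 5.67, 5.19, 6.55 and 7.43 FPKM in libraries 228, 230, 242, 243 and 255, labelled NPRA+/+ (log2 difference -0.12, SE 0.11, interval -0.37 to 0.12). NPRA+/+ library 255 was highest and NPRA-/- library 231 lowest.

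**Figure D2:**
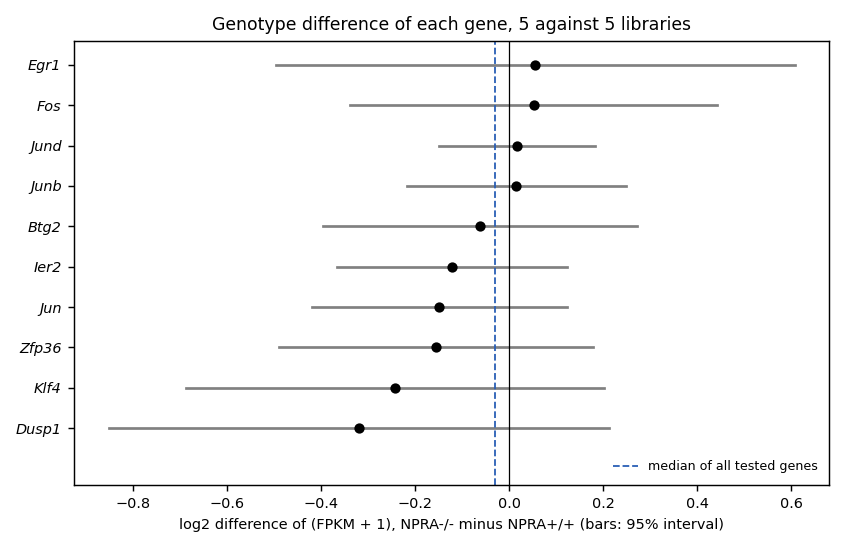
Log2 difference of (FPKM + 1), NPRA-/- minus NPRA+/+ (x axis), for each of the 10 genes (y axis); points are estimates over 5 against 5 libraries, bars are 95% intervals and the dashed line is the median of all tested genes, -0.029. Every interval includes 0; the widest belong to Egr1 and Dusp1 and the narrowest to Jund.

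The levels of the genes kept a broad order across the libraries. On the FPKM scale, which is per length, the means over all 10 libraries were 37.7 for Jund, 25.9 for Jun, 21.6 for Klf4, 20.5 for Dusp1, 16.5 for Btg2, 10.7 for Zfp36, 6.75 for Junb, 5.95 for Ier2, 5.95 for Egr1 and 3.36 for Fos. Jund was above Jun in 10 of 10 libraries with no overlap of their ranges, and Jun was above Klf4, Btg2 above Zfp36, Zfp36 above Junb and Egr1 above Fos within each of the 10 libraries although their ranges overlapped. Klf4 was above Dusp1 in 4 of 10 libraries and Ier2 above Egr1 in 6 of 10, so these neighbours had no fixed order.

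The genes differed in how much they varied between mice of a genotype. The SD of log2(FPKM + 1) about the genotype means was 0.43 for Egr1 and 0.42 for Dusp1, and 9.03% and 9.65% of all tested genes had a larger SD. It was 0.35 for Klf4 and 0.29 for Fos, with 14.3% and 20.9% of genes above them. At the other end it was 0.11 for Jund, with 77.7% of genes above it, 0.16 for Junb and 0.17 for Ier2, where the median of all tested genes was 0.17. Over the 10 libraries the highest value was 2.96 times the lowest for Dusp1, 2.69 times for Egr1 and 1.23 times for Jund. The spread of Fos lay mostly in the NPRA-/- libraries, with a coefficient of variation of 38.7% there and 9.06% in the NPRA+/+ libraries. Whether the genotypes differ in spread was not tested.

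Pairs of the genes were compared over the 10 libraries. Of the 45 pairs, 40 had a positive Pearson r of log2(FPKM + 1), or 88.9%, against 52.1% of all pairs of tested genes. An r of at least 0.5 was found in 15 pairs, or 33.3%, against 8.32% of all pairs. Pairs share genes and libraries, so these shares are a description with no test. After Benjamini-Hochberg adjustment over the 45 pairs, 1 pair passed in a permutation test with 100000 resamples, and 8 pairs had an unadjusted p under 0.05. The pair that passed was Jun and Klf4, with r = 0.93 (permutation p = 2.0e-05, adjusted p = 9.0e-04) and Spearman rho = 0.96 (permutation p = 4.0e-05, adjusted p = 0.0018). Without libraries 230 and 241, the farthest from the median of Jun, r was 0.88 over 8 libraries. With the genotype means subtracted, which gives the relation within genotypes, r was 0.92; each genotype alone has 5 libraries, too few for an r. Among all 10763 other tested genes, Jun was the gene most correlated with Klf4, and Klf4 was at rank 2 for Jun. Both genes lie on chromosome 4, Jun at 95049034 to 95052222 and Klf4 at 55527143 to 55532466. Whether position has a part in their correlation was not tested.

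The next pairs did not pass the adjusted threshold, and some depended on 2 libraries. Btg2 and Klf4 had r = 0.70 (permutation p = 0.0231, adjusted p = 0.208, rho = 0.48), and 0.36 without libraries 228 and 241. Zfp36 and Klf4 had r = 0.66 (permutation p = 0.0401, adjusted p = 0.226, rho = 0.47), and 0.15 without libraries 241 and 255. Fos and Btg2 had r = 0.66 (permutation p = 0.0299, adjusted p = 0.215, rho = 0.73), and 0.63 without libraries 231 and 240. Jun and Btg2 had r = 0.81 (permutation p = 0.0060, adjusted p = 0.136; rho = 0.66, permutation p = 0.043, adjusted p = 0.277; r = 0.68 without libraries 230 and 241). Dusp1 and Btg2 had r = 0.73 (permutation p = 0.0138, adjusted p = 0.207; rho = 0.71, permutation p = 0.0266, adjusted p = 0.229; r = 0.64 without libraries 241 and 242). Junb and Egr1 had r = 0.72 (permutation p = 0.0187, adjusted p = 0.208; rho = 0.52, permutation p = 0.134, adjusted p = 0.430; r = 0.54 without libraries 217 and 255). Jund and Egr1 had r = 0.68 (permutation p = 0.0334, adjusted p = 0.215; rho = 0.70, permutation p = 0.0303, adjusted p = 0.229; r = 0.62 without libraries 227 and 230). The 5 negative values all involved Zfp36 or Ier2, and the lowest was -0.25, for Jund and Zfp36 (permutation p = 0.503, adjusted p = 0.777; rho = -0.43, permutation p = 0.217, adjusted p = 0.546; r = -0.42 without libraries 227 and 230). Junb and Zfp36 had r = -0.23 (permutation p = 0.532, adjusted p = 0.777, rho = -0.18), which turned to 0.71 without libraries 217 and 255.

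**Figure D3:**
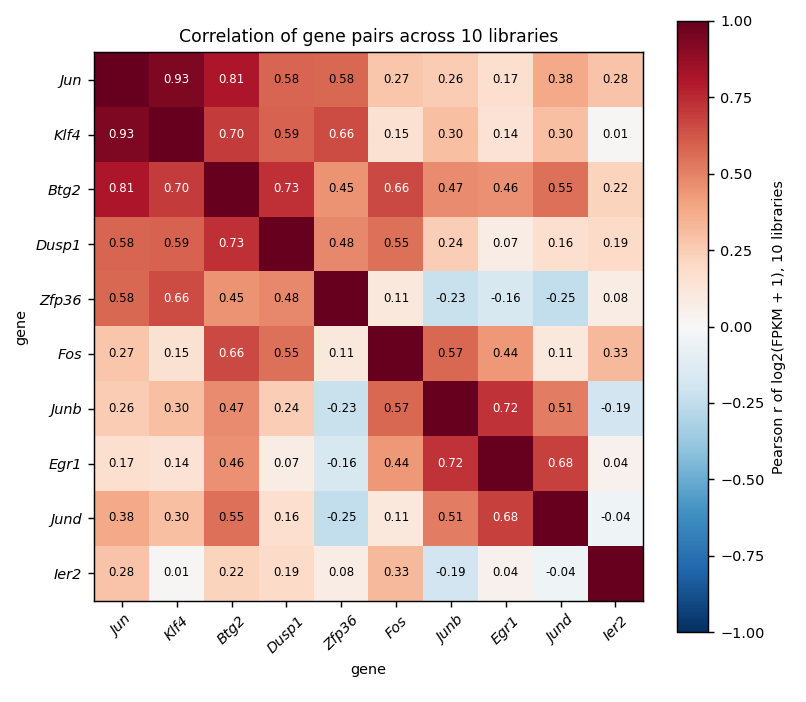
Pearson r of log2(FPKM + 1) over 10 libraries for the 45 pairs of genes (colour scale from -1 to 1, value printed in each cell). Jun and Klf4 have the highest value, 0.93; Egr1 is high with Junb and Jund, and Zfp36 is at or below 0 with Junb, Jund and Egr1.

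The extremes of several genes fell in the same libraries. Library 241 (NPRA-/-) had the lowest value of all 10 libraries in 5 genes, Jun, Klf4, Btg2, Dusp1 and Zfp36, where 15.4% of all tested genes were lowest in that library. Library 240 (NPRA-/-) had the highest value in 4 genes, Fos, Junb, Egr1 and Btg2, where 8.44% of all tested genes were highest. Library 230 (NPRA+/+) was highest in Jun and Klf4 and among the 3 highest in 7 of the 10 genes. The highest and lowest libraries thus lay in both genotypes. The summed FPKM of 8 fibroblast markers, all of them listed, was also lowest in library 241 and highest in library 230, with 374 to 460 FPKM in hearts labelled NPRA-/- and 410 to 537 FPKM in hearts labelled NPRA+/+. Most of that sum was Dcn, at 265 ± 19.5 FPKM in hearts labelled NPRA-/- and 288 ± 28.3 FPKM in hearts labelled NPRA+/+. Of the 8 markers only Dcn and Dpt were lowest in library 241. Col1a1, Col1a2 and Pdgfra were lowest in library 217, Col3a1 in 231, Tcf21 in 240 and Lum in 242. The sum of 8 macrophage markers was 105.3 to 127.99 FPKM in hearts labelled NPRA-/-, lowest in 241, and 128.23 to 148 FPKM in hearts labelled NPRA+/+. The sum of 8 endothelial markers was 247 to 312 FPKM in hearts labelled NPRA-/- and 293 to 320 FPKM in hearts labelled NPRA+/+, and library 241, at 296 FPKM, was in the middle of that order. The sum of 8 smooth muscle and pericyte markers was 327 to 411 FPKM in hearts labelled NPRA-/- and 324 to 549.99 FPKM in hearts labelled NPRA+/+. Each of the 8 markers in these 4 lists had a lower mean in hearts labelled NPRA-/-, and limma called none. Of all tested genes 60.6% were lower, or 49.4% with median-of-ratios scaling. Markers of a list are not independent, so their directions carry no test. The unadjusted p was under 0.05 for 4 fibroblast, 4 macrophage, 3 endothelial and 2 smooth muscle and pericyte markers, against 5.52% of all tested genes. No marker was at 0 in all libraries. The groups overlapped in the fibroblast, endothelial and smooth muscle sums and did not overlap in the macrophage sum. The nearest macrophage sums were almost equal, at 127.99 FPKM in NPRA-/- library 217 and 128.23 FPKM in NPRA+/+ library 228. Among single markers, 1 of 8 macrophage and 1 of 8 endothelial genes had no overlap, and 0 in the other 2 lists. The share of all tested genes was 1.08%. In the other marker lists the sums overlapped. In hearts labelled NPRA-/- and NPRA+/+ they were 26067 to 30612 and 26344 to 28752 FPKM for cardiomyocytes, 299 to 666 and 238 to 870 FPKM for atrial genes, 669 to 766 and 648 to 838 FPKM for adipocytes, and 949 to 1441 and 772 to 1395 FPKM for blood. The part of these cell types in the variation of the 10 genes was not tested. Myl7 was at 140, 81.8, 12.7, 0.263 and 0 FPKM in libraries 217, 227, 231, 240 and 241, labelled NPRA-/-. In libraries 228, 230, 242, 243 and 255, labelled NPRA+/+, it was at 0.586, 75.4, 73.2, 26.9 and 0 FPKM. The relation of Myl7 to the 10 genes was not tested.

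**Figure D4:**
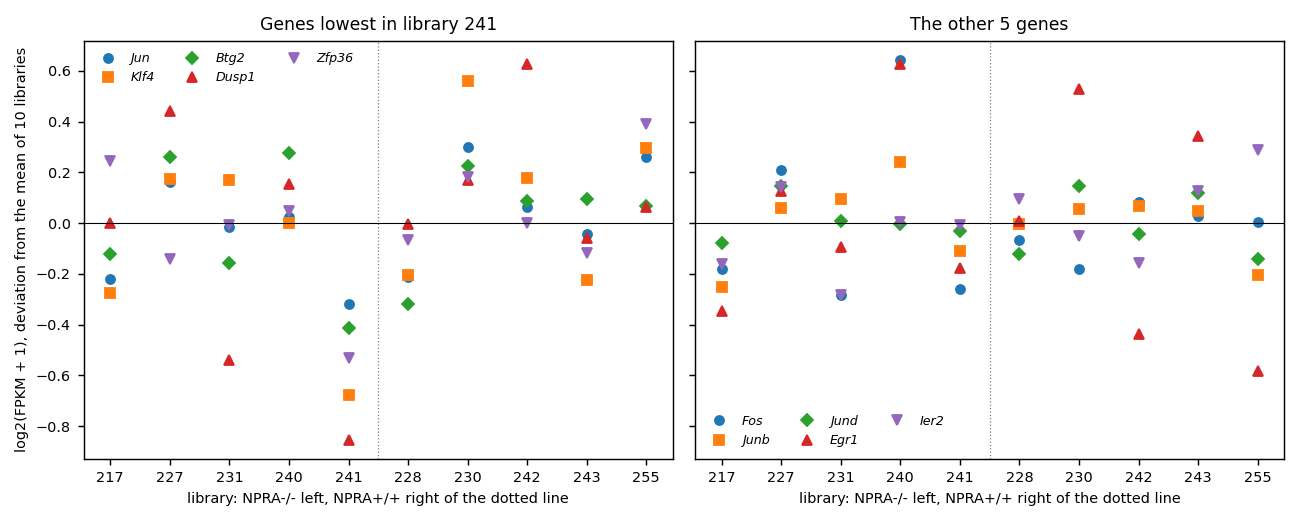
Deviation of log2(FPKM + 1) from the mean of 10 libraries (y axis) for the 5 genes that were lowest in library 241 (left panel) and for the other 5 (right panel), by library (x axis; NPRA-/- left and NPRA+/+ right of the dotted line). The panels were split by that choice, so the low place of library 241 on the left is no finding; in the right panel Fos, Junb and Egr1 are highest in library 240.

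The promoters of the 5 genes that shared their lowest library are shown because they include the most correlated pair of members. Sequences are RefSeq windows on GRCm38.p6, from 250 bases before to 50 bases after the RefSeq start site, read along the gene's own strand; 8 of the 10 genes matched an entry, and Egr1 and Ier2 did not. Capitals mark every match, on either strand, to 6 motifs: the CArG box bound by serum response factor, TGACNTCA (the cAMP response element bound by CREB and ATF factors and its variants), TGACTCA (the AP-1 site), GCGNGGGCG (the EGR site), GGGCGG (the GC box) and TATAAA (the TATA box). Matches of different motifs can overlap, as the GC box and the EGR site do in Klf4 and the GC box and the CArG box in Zfp36.
Jun: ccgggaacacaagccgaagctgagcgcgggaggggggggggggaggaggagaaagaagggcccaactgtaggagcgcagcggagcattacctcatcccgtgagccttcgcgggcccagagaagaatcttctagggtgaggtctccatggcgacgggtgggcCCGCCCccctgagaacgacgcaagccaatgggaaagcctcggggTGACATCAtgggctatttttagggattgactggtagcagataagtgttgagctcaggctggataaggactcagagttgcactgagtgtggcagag
Klf4: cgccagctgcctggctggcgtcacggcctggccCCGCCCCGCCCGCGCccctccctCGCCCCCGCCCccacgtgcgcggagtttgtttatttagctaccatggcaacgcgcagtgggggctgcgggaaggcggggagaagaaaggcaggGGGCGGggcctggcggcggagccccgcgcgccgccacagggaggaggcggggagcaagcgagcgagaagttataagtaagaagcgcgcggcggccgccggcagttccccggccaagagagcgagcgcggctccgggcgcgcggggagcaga
Btg2: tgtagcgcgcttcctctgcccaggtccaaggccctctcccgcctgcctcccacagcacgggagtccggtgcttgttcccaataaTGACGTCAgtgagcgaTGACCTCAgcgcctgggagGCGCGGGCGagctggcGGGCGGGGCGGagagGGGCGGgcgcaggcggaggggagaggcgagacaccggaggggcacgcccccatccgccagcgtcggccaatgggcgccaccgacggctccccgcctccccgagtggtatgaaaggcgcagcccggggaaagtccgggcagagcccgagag
Dusp1: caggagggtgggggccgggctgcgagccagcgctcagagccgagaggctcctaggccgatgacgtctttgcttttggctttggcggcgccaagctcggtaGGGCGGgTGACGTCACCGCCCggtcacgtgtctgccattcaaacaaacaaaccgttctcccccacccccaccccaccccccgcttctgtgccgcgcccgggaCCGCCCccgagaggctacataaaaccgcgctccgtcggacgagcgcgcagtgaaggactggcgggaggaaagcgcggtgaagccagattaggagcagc
Zfp36: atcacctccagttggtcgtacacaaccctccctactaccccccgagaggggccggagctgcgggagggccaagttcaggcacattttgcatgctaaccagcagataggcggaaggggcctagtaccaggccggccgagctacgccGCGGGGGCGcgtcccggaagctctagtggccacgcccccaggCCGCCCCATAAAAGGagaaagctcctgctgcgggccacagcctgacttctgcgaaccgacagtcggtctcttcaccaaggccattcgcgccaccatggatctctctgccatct
The windows are chr4:95052173-95052472 for Jun, chr4:55532426-55532725 for Klf4, chr1:134079106-134079405 for Btg2, chr17:26508423-26508722 for Dusp1 and chr7:28379179-28379478 for Zfp36, all on the minus strand. The RefSeq start site of Zfp36 lies 1025 bases from the start of the transcript listed in the table, and that of Jund, not printed, 1210 bases; for the other 6 windows the distance was at most 47 bases.

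TGACNTCA was found in the windows of Jun, Btg2 and Dusp1, which is 3 of 8, and in 8.83% of all 32851 promoter windows of the same length. In Jun it lay at -45 to -38 from the start site. In Dusp1 it lay at -143 to -136, and in Btg2 at -166 to -159 and -150 to -143. Klf4, the member most correlated with Jun, had no match to it. Of the 6 motifs, its window matched the EGR site and the GC box. The CArG box was found in 1 of 8 windows, that of Zfp36 at -58 to -49, against 1.63% of all windows. The EGR site was in 3 of 8 (Btg2, Klf4 and Zfp36) against 5.55%, the GC box in 6 of 8 against 35.7%, the TATA box in Fos and Junb against 13.6%, and TGACTCA in 0 of 8 against 5.20%. The 8 windows held 46.7% to 74.3% G and C, where the median of all windows was 52.7%, and their GC content was not matched in these shares. A match is a run of letters in the window and not a measured site of binding. Sites outside the windows, or with letters other than these patterns, were not sought, so a gene without a match may still have such sites.

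Other immediate early genes were compared next. Of 56 written names, 49 were listed and 43 passed the filter of 1 FPKM. Among the names not listed, Cyr61 and Ctgf are older symbols of Ccn1 and Ccn2, which were listed. By their mean 16 were higher and 27 lower. None was called by limma and 1 had an unadjusted p under 0.05, against 0.00929% and 5.52% of all tested genes. The median log2 difference of the 43 genes was -0.074, against -0.029 over all tested genes. Klf9, a glucocorticoid-responsive Krüppel-like factor, was at 40.7 ± 1.73 FPKM in hearts labelled NPRA-/- and 46.3 ± 4.35 FPKM in hearts labelled NPRA+/+ (SD, n = 5 each; limma adjusted p = 0.867). Dusp6, a phosphatase of ERK, was at 3.81 ± 0.890 FPKM in hearts labelled NPRA-/- and 4.86 ± 0.965 FPKM in hearts labelled NPRA+/+ (limma adjusted p = 0.906). The most abundant were Mcl1, an anti-apoptotic BCL2 relative, at 61.9 ± 3.38 and 64.3 ± 2.99 FPKM in hearts labelled NPRA-/- and NPRA+/+, and Rhob, a small GTPase, at 41.0 ± 4.14 and 46.2 ± 7.55 FPKM. Of the 43 genes, 12 had their lowest value in library 241 and 14 their highest in library 230, where 15.4% and 13.4% of all tested genes did. Klf2 and Klf6 were among both, and Klf6 was chosen after its values were seen. Klf2, the other flow-responsive factor of endothelium, was at 33.7, 28.9, 42.0, 36.6 and 17.4 FPKM in libraries 217, 227, 231, 240 and 241, labelled NPRA-/-, against 26.8, 49.9, 47.7, 25.6 and 45.9 FPKM in libraries 228, 230, 242, 243 and 255, labelled NPRA+/+. Klf6 ran from 16.7 to 27.5 FPKM in hearts labelled NPRA-/- and from 20.2 to 29.1 FPKM in hearts labelled NPRA+/+.

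The upstream and partner genes were also without a call. Of all tested genes, limma called 0.00929%, 5.52% had an unadjusted p under 0.05 and 1.08% had no overlap of the groups. Of 19 induction factors (serum response factor with its cofactors, CREB and MEF2 genes) 5 were higher and 14 lower by their mean, with a median log2 difference of -0.047 and 1 at an unadjusted p under 0.05. Crtc2, a CREB coactivator, was at 3.30 ± 1.22 FPKM in hearts labelled NPRA-/- and 1.74 ± 1.61 FPKM in hearts labelled NPRA+/+ (limma adjusted p = 0.893), and Creb1 at 3.85 ± 1.22 and 4.95 ± 0.901 FPKM in the same order of labels. The abundant Mef2a was at 25.6 ± 4.58 FPKM in hearts labelled NPRA-/- and 34.3 ± 9.71 FPKM in hearts labelled NPRA+/+, and Mef2d at 44.1 ± 0.911 and 49.7 ± 7.70 FPKM. Of 26 MAP kinase cascade genes 11 were higher and 15 lower (median -0.0076), with 0 called by limma, 3 at an unadjusted p under 0.05 and 1 without overlap of the groups. Map2k3, which activates p38, was at 16.7 ± 2.40 FPKM in hearts labelled NPRA-/- and 9.99 ± 4.16 FPKM in hearts labelled NPRA+/+ (log2 difference 0.77, SE 0.24, limma adjusted p = 0.833). Mapkapk2 and Map2k2, the most abundant genes of the cascade, were at 111 ± 5.62 and 77.7 ± 6.26 FPKM in hearts labelled NPRA-/- and at 115 ± 4.66 and 76.9 ± 2.63 FPKM in hearts labelled NPRA+/+.

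Of 11 other genes of leucine-zipper factors 4 were higher and 7 lower (median -0.13). Limma called 0, 2 had an unadjusted p under 0.05 and 1 was without overlap of the groups. For all tested genes the shares were 0.00929%, 5.52% and 1.08%. Atf5 was at 23.9 ± 1.08 FPKM in hearts labelled NPRA-/- and 27.7 ± 2.41 FPKM in hearts labelled NPRA+/+ (limma adjusted p = 0.833). The abundant Nfe2l2 and Nfe2l1 were at 34.8 ± 2.37 and 30.2 ± 2.34 FPKM in hearts labelled NPRA-/- and at 34.8 ± 2.67 and 33.0 ± 8.18 FPKM in hearts labelled NPRA+/+. Of 25 mRNA decay genes, which include relatives and partners of Zfp36 and Btg2, 2 were higher and 23 lower (median -0.089), with 0 called by limma and 1 at an unadjusted p under 0.05. Zfp36l1, a relative of Zfp36, was at 20.4 ± 2.09 FPKM in hearts labelled NPRA-/- and 25.2 ± 3.98 FPKM in hearts labelled NPRA+/+ (log2 difference by limma -0.28, SE 0.11, adjusted p = 0.869). Cnot6, a catalytic deadenylase subunit, was at 5.62 ± 0.887 and 6.70 ± 0.660 FPKM, the poly(A)-binding protein gene Pabpc1 at 70.0 ± 9.71 and 76.5 ± 4.74 FPKM and Cnot8 at 28.3 ± 1.89 and 28.9 ± 2.29 FPKM in hearts labelled NPRA-/- and NPRA+/+. Of 10 other Krüppel-like factor genes 3 were higher and 7 lower (median -0.076), with 0 called by limma, 2 at an unadjusted p under 0.05 and 1 without overlap of the groups. Klf2, Klf6, Klf9 and Klf10 are also among the other immediate early genes above. Klf9 is thus counted at an unadjusted p under 0.05 in both lists. Klf13 was at 10.9 ± 0.454 FPKM in hearts labelled NPRA-/- and 13.2 ± 1.38 FPKM in hearts labelled NPRA+/+ (log2 difference by limma -0.26, SE 0.075, adjusted p = 0.833). With median-of-ratios scaling 49.4% of all tested genes were lower instead of 60.6%, and the median of all tested genes was 0.0016 instead of -0.029.

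**Figure D5:**
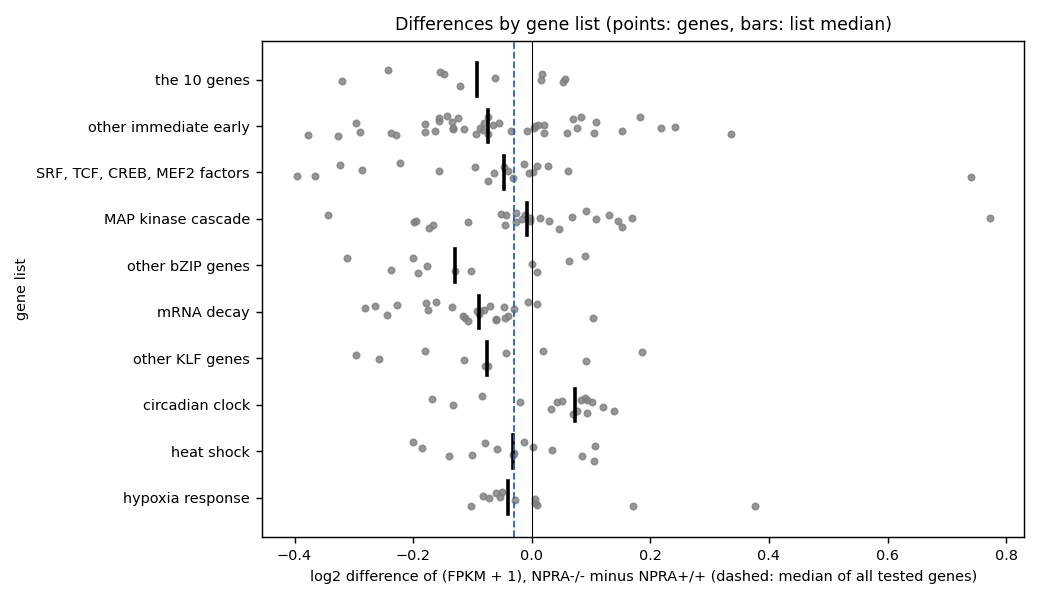
Log2 difference of (FPKM + 1), NPRA-/- minus NPRA+/+ (x axis), of the tested genes of 10 lists (rows); points are genes, black bars are list medians and the dashed line is the median of all tested genes, -0.029. The medians run from -0.13 for the other leucine-zipper genes to 0.073 for the circadian clock; the 2 points farthest to the right are Crtc2 and Map2k3.

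The genes whose pattern was most like that of the 10 genes were found by their Pearson r with the mean of the members' standardized values, among 6680 other genes with a mean of 5 FPKM or more. They were Dbn1, Upf3a, Cdr2, Trmt112, Tnip1, Gna13, Ddx21 and Ppp2r3c, with r from 0.87 to 0.91 over 10 libraries. Of these 8 genes, 7 had their lowest value in library 241, and Dbn1, Cdr2, Trmt112 and Gna13 had their highest in library 230. They were chosen by their likeness to the members, so extremes shared with the members are no separate finding. Dbn1, which encodes the actin-binding protein drebrin, ran from 5.84 to 10.02 FPKM, and Tnip1, which encodes an inhibitor of NF-kappa-B signalling, from 18.1 to 23.0 FPKM. These values are a description of 10 libraries and carry no test.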

How the data were processed

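Messenger RNA of mouse myocardium was sequenced in 10 libraries, 5 per genotype. Oligo(dT) beads enriched the RNA, and strand-specific dUTP libraries were read for 150 cycles from both ends, per the labels' protocols. StringTie, HISAT2 and cutadapt are named with mm10, per the submitters' processing notes; the sources used here give no versions or settings. The deposited table gives 1 value per transcript and library, taken as FPKM; the authors' file does not name its unit, and TPM would differ by 1 factor per library. A gene's missing transcripts are not analysed here, and 22107 of 22157 transcripts matched GENCODE M21.

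Values were summed per gene symbol and used as log2(FPKM + 1), which understates differences of low genes. Genes with a mean of at least 1 FPKM in 1 genotype (10764) were fitted with limma 3.58.1 in R 4.3.3 (empirical Bayes with trend, no covariate) and adjusted by Benjamini-Hochberg at 0.05. Single measures were compared by two-sided exact permutation tests over 126 splits. Scripts were tested on simulated data. Correlations, sums and figures came from Python 3.11.15 with scipy 1.17.1, matplotlib 3.10.9, numpy 2.4.6 and pandas 2.3.3.

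The 10 genes and the 17 further lists were chosen with earlier results of these data known. Some genes are in more than 1 list, as Klf9, Atf2 and Per1 are. From each list the 2 genes with the smallest p and the 2 most abundant are named (up to 4 called genes where any was called), besides the 8 genes most like the members in pattern. Marker lists are given as sums, and 2 genes that the rule names are not reported here. Alternatives were a pseudocount of 0.1 or 0.5, a floor of 5 FPKM or none, scaling to the same sum, by median of ratios or by quantiles, the most abundant transcript of each gene, no trend, subtraction of genotype means, and leaving out each library in turn.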

Additional observations from a re-analysis of the deposited data

Results flagged for a closer look

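Within each genotype the highest and the lowest library were set against the others for the 10 genes, the Jund share and the AP-1 sum, with Dixon's 95% critical value for 5 samples. This marked 2 of 24 groups, where chance marks about 1 in 20. Junb was at 5.69 FPKM in NPRA+/+ library 255, and the nearest of the other 4 NPRA+/+ libraries was at 6.70 FPKM. Dusp1 was at 30.9 FPKM in NPRA+/+ library 242, and the nearest of the other 4 was at 22.3 FPKM. Without library 255 the log2 difference of Junb was -0.034, and without library 242 that of Dusp1 was -0.20.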

How the results depend on the processing

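None of the 10 genes was called in any of the 19 alternatives to the genotype fit, and 0 had an unadjusted p under 0.05 in any of them. Fos could not be fitted with the floor of 5 FPKM. Dusp1, Klf4, Zfp36, Jun and Ier2 stayed lower in all 19, but their size depended on single libraries. Leaving out 1 library gave -0.47 to -0.15 for Dusp1 (nearest 0 without 241, -0.20 without 242), -0.33 to -0.10 for Klf4 (nearest 0 without 241, -0.13 without 230) and -0.24 to -0.042 for Zfp36 (without 217 and 241; -0.077 without 255). It gave -0.22 to -0.087 for Jun (nearest 0 without 241, -0.092 without 230) and -0.18 to -0.064 for Ier2 (nearest 0 without 255, -0.065 without 231). Leaving out 1 library turned the direction of the log2 difference for 5 genes. It ran from -0.094 to 0.19 for Egr1 (below 0 without 240, 242 or 255), from -0.043 to 0.080 for Junb (without 231, 240 or 255) and from -0.018 to 0.055 for Jund (without 227, 228 or 255). It ran from -0.10 to 0.13 for Fos (without 240) and from -0.15 to 0.033 for Btg2 (above 0 without 241). The cause was not tested. The correlation of Jun and Klf4 passed in all 13 alternatives, with r from 0.91 to 0.95 when 1 library was left out, and it was the only pair of the 45 to pass in them. The difference in the Jund share kept its sign, at 1.30 to 3.34 percentage points without 1 library. The log2 difference of the AP-1 sum lay between -0.084 and -0.0010, and neither passed its test in any alternative. No paired analysis was possible because the genotypes share no mouse number. Depth is unknown, so the counting error of low values such as those of Fos could not be estimated.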

Other observations

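Genes that follow the time of day, heat stress and low oxygen were compared because the RNAs of these programmes also change quickly. Of 16 circadian clock genes 12 were higher and 4 lower by their mean in hearts labelled NPRA-/- (median log2 difference 0.073). None was called by limma and 0 had an unadjusted p under 0.05, against 0.00929% and 5.52% of all tested genes. Dbp, an output gene of the clock, was at 28.7 ± 10.2 FPKM in hearts labelled NPRA-/- and 27.4 ± 8.97 FPKM in hearts labelled NPRA+/+ (SD, n = 5 each). Dbp was at 22.3, 14.4, 32.7, 34.8 and 39.4 FPKM in libraries 217, 227, 231, 240 and 241, labelled NPRA-/-. In libraries 228, 230, 242, 243 and 255, labelled NPRA+/+, it was at 18.7, 17.8, 28.5, 35.3 and 36.8 FPKM. It was thus lowest in library 227 and highest in library 241. The relation of Dbp to the 10 genes was not tested. Tef was at 27.4 ± 1.56 and 26.8 ± 2.22 FPKM, Nr1d2 at 22.1 ± 2.11 and 20.1 ± 3.11 FPKM and Clock at 10.1 ± 2.38 and 11.3 ± 1.78 FPKM in hearts labelled NPRA-/- and NPRA+/+.

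Of 14 heat shock genes 5 were higher and 9 lower (median -0.031), with 0 called and 0 at an unadjusted p under 0.05. For all tested genes the shares were 0.00929% and 5.52%. Hspa8, the constitutive chaperone, was at 541 ± 29.1 FPKM in hearts labelled NPRA-/- and 505 ± 64.8 FPKM in hearts labelled NPRA+/+, Hsp90ab1 at 771 ± 40.6 and 730 ± 83.0 FPKM, and Dnajb4 at 56.4 ± 4.13 and 52.5 ± 5.58 FPKM. Of 12 hypoxia genes 5 were higher and 7 lower (median -0.039), with 0 called and 1 at an unadjusted p under 0.05. That was Pdk1, which restrains pyruvate oxidation, at 26.5 ± 1.70 FPKM in hearts labelled NPRA-/- and 23.4 ± 1.52 FPKM in hearts labelled NPRA+/+ (limma adjusted p = 0.867). Hmox1 was at 9.34 ± 5.56 and 6.28 ± 0.742 FPKM, Ldha at 130.004 ± 6.33 and 138 ± 10.8 FPKM and Bnip3 at 101 ± 6.65 and 101 ± 11.98 FPKM in hearts labelled NPRA-/- and NPRA+/+.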
